A study of Mus musculus with 66 samples.

Results

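The genes described here are the nuclear genes of oxidative phosphorylation, 96 of the 24138 genes in the deposited table of expression in mouse ventral striatum. They were chosen by symbol alone, as every row whose symbol begins with Nduf, Sdha, Sdhb, Sdhc, Sdhd, Uqcr, Cox4 to Cox8 or Atp5, and no measured value entered the choice. They comprise 7 core subunits, 29 accessory subunits and 7 assembly factors of complex I, 4 subunits and 4 assembly factors of complex II, 8 subunits of complex III, 18 of complex IV, and 5 of the F1 head and 10 of the stalk and Fo part of complex V. A further 4 genes match by name only and are kept apart: Cox7a2l, a supercomplex factor, Ndufa4l2, a paralog of the complex IV subunit Ndufa4, and Atp5s and Atp5sl, which encode no subunit. Subunits encoded by mitochondrial DNA do not match these names.

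Oxidative phosphorylation is the main source of ATP in neurons. Complex I takes electrons from NADH and complex II from succinate, complex III passes them on to cytochrome c, and complex IV passes them to oxygen, while complexes I, III and IV pump the protons that drive ATP synthesis by complex V. Assembly factors build these complexes without being part of the finished enzymes, and several subunits come in isoforms that differ between tissues.

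Wild type (WT) mice were compared with iMSN-D2RKO mice, which lack the dopamine D2 receptor in the indirect-pathway medium spiny neurons of the striatum. In the mutants both Drd2 alleles are floxed and Cre is driven by the promoter of the D1 receptor, which acts in the common precursors of the medium spiny neurons, so the deletion dates from development and D2 receptors outside these neurons remain. The mice were males of 3 to 5 months on a C57BL/6J background (C57BL/6 in the labels), kept in equal hours of light and dark, and each genotype received saline or cocaine (20 mg/kg, intraperitoneal) once at zeitgeber time (ZT) 3. Punches were taken at ZT3, 7, 11 (light hours), 15, 19 and 23 (dark hours), with 3 libraries at each point. The ZT3 libraries of a genotype, labelled saline/cocaine, are the same libraries in its saline and its cocaine series, so the 2 series of a genotype are not independent. This gave 66 distinct libraries in 22 groups, 33 libraries of each genotype. Levels are given as FPKM, fragments per kilobase of transcript and relative to library size, as deposited, which allows genes to be set side by side. In punches of whole tissue, fewer cells of a type and less RNA per cell cannot be told apart.

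Summed over all genes, a library held between 364078 and 690048 FPKM, with 12496 to 13028 genes at 1 FPKM or more. Drd2 was 99.1 to 304 FPKM in WT and 78.0 to 375 FPKM in iMSN-D2RKO libraries, but a value for the whole gene cannot show the loss of an exon and does not check the genotypes. The 10 marker genes of medium spiny neurons were all listed, with a summed level of 2581 to 15758 FPKM. A principal component of the deviations of libraries from their group means, the leading one with 43.6% of that variance over 9584 genes, put 13 libraries apart from the other 53, with scores of 44.3 to 56.1 against -35.9 to 15.1. The same 13 were found when the oxidative phosphorylation genes were left out. They lay in 10 groups, all of which also held libraries that did not stand apart, and none was sampled at ZT3 or ZT11. The only one from light hours was iMSN-D2RKO cocaine replicate 2 at ZT7, and all the others were from dark hours. WT cocaine replicate 3 at ZT15 had the lowest total FPKM and iMSN-D2RKO saline replicate 1 at ZT7 the highest, and results are therefore also given without these 2 and the 13, here called without 15 libraries, a choice made after the data were seen.

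The 13 libraries touch these genes directly. Summed over the 96 genes, FPKM made up 2.55 to 2.95% of the library total in the 13 set-apart libraries (median 2.79%) and 4.09 to 5.75% (median 4.58%) in 51 others. The share was 1.77% in WT cocaine replicate 3 at ZT15 and 5.68% in iMSN-D2RKO saline replicate 1 at ZT7. In the set-apart libraries the summed level of 5 astrocyte markers was 294 to 385 FPKM (median 365) against 193 to 406 FPKM (median 244) in the 51 others, so that it was higher at the median with overlapping ranges. That of 6 oligodendrocyte markers was 1793 to 3612 FPKM (median 2342) against 1986 to 5580 FPKM (median 3061), lower at the median and also overlapping. That of the medium spiny neuron markers was 3664 to 5687 FPKM (median 4656) against 2581 to 6588 FPKM (median 4099), higher at the median and overlapping. Summed markers of microglia, 74.9 to 109 against 70.3 to 110 FPKM, of endothelium, 81.5 to 120 against 63.3 to 133 FPKM, and of pericytes, 74.8 to 98.3 against 70.4 to 106 FPKM, overlapped as well. Cortical projection neuron markers reached 191 FPKM in the 13 and 279 FPKM in the others, and choroid plexus markers 493 and 1128 FPKM. Of 5 blood markers only Alas2 was listed, at 3.0 FPKM or less. A rough relative depth, estimated from low values, was 0.503 to 0.806 of the median library in the 13. It was 0.378 in WT cocaine replicate 3 at ZT15 and 0.421 in iMSN-D2RKO saline replicate 1 at ZT7. No other library was below 0.823. The part of these cells, of depth, or of any step of library preparation, in the difference was not tested.

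**Figure D1:**
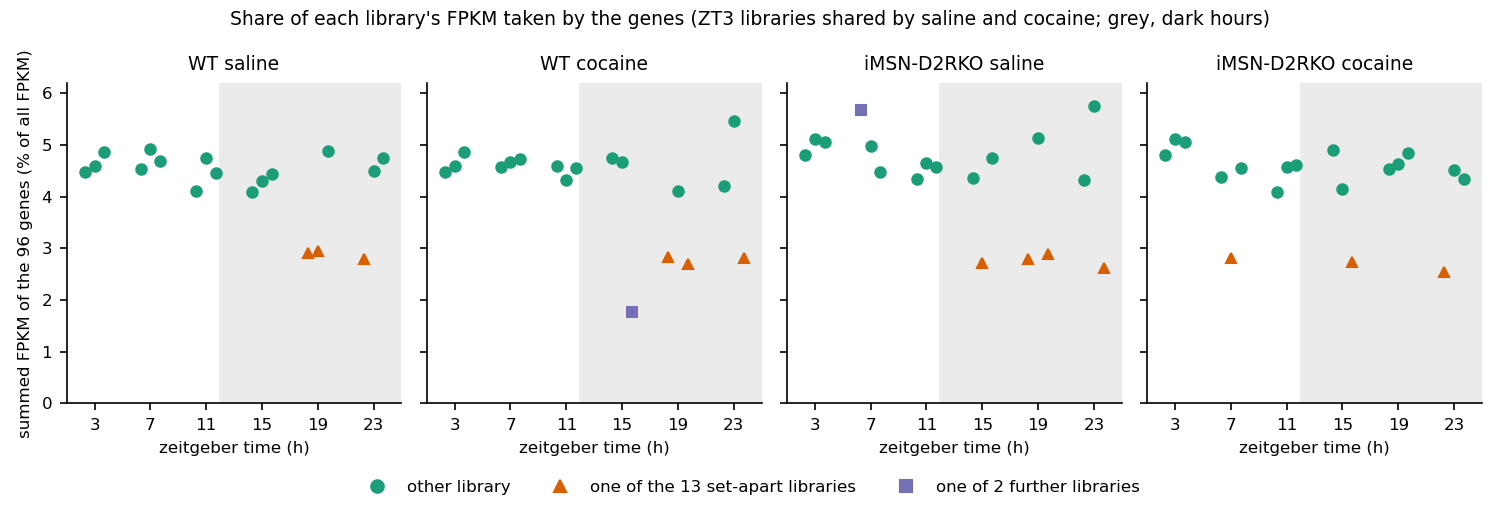
Summed FPKM of the 96 genes as a percentage of all FPKM in each library (vertical axis) against zeitgeber time in hours, by series; each point is a library, with the ZT3 libraries drawn in both series of a genotype and dark hours in grey. The 13 set-apart libraries (triangles) lie between 2.55 and 2.95%, WT cocaine replicate 3 at ZT15 lies at 1.77%, and no other library is below 4.09%.

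Most of these genes were strongly expressed. Of the 96, 89 were at 1 FPKM or more in every library, 86 had a mean of at least 5 FPKM, 54 a mean of at least 100 FPKM and 18 a mean of at least 300 FPKM, and the median gene had a mean of 116 FPKM. The highest were Cox4i1 (mean 914 FPKM, range 283 to 2021), the ubiquitous form of a regulatory subunit of complex IV, Cox8a (857 FPKM), Cox6a1 (773 FPKM) and Atp5b (715 FPKM, range 424 to 945), the catalytic beta subunit of the F1 head. Within groups the median standard deviation was 0.41 on the log2 scale and 0.18 without 15 libraries.

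By complex, the median of the gene means was 334 FPKM for F1, 251 FPKM for complex III, 145 FPKM for the stalk and Fo, 130 and 108 FPKM for the accessory and core subunits of complex I, and 99 FPKM for the subunits of complex II. Complex IV had the lowest median of the subunit groups, 64.8 FPKM, and the widest spread, from Cox8c (0.0031 FPKM) to Cox4i1. It supplied 28.7% of the summed FPKM of the 96 genes, ahead of the accessory subunits of complex I with 25%. The most abundant complex I subunits were Ndufa3 (441 FPKM) and, in the core, Ndufs7 (226 FPKM), while Ndufs3 was the lowest core subunit (38.4 FPKM). In complex II, the flavoprotein subunit Sdha had a mean of 154 FPKM and a narrow range of 117 to 191 FPKM over all 66 libraries, and the membrane anchor Sdhd was lowest (65.8 FPKM). Uqcrh, the hinge subunit of complex III, reached 485 FPKM, and Uqcrfs1, its Rieske iron-sulphur protein, 76.6 FPKM. Assembly factors were lower: 5.88 (Ndufaf6) to 39.5 FPKM (Ndufaf3) for complex I and 12.6 (Sdhaf2) to 25.3 FPKM (Sdhaf4) for complex II, that is 0.7% and 0.4% of the summed FPKM.

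**Figure D2:**
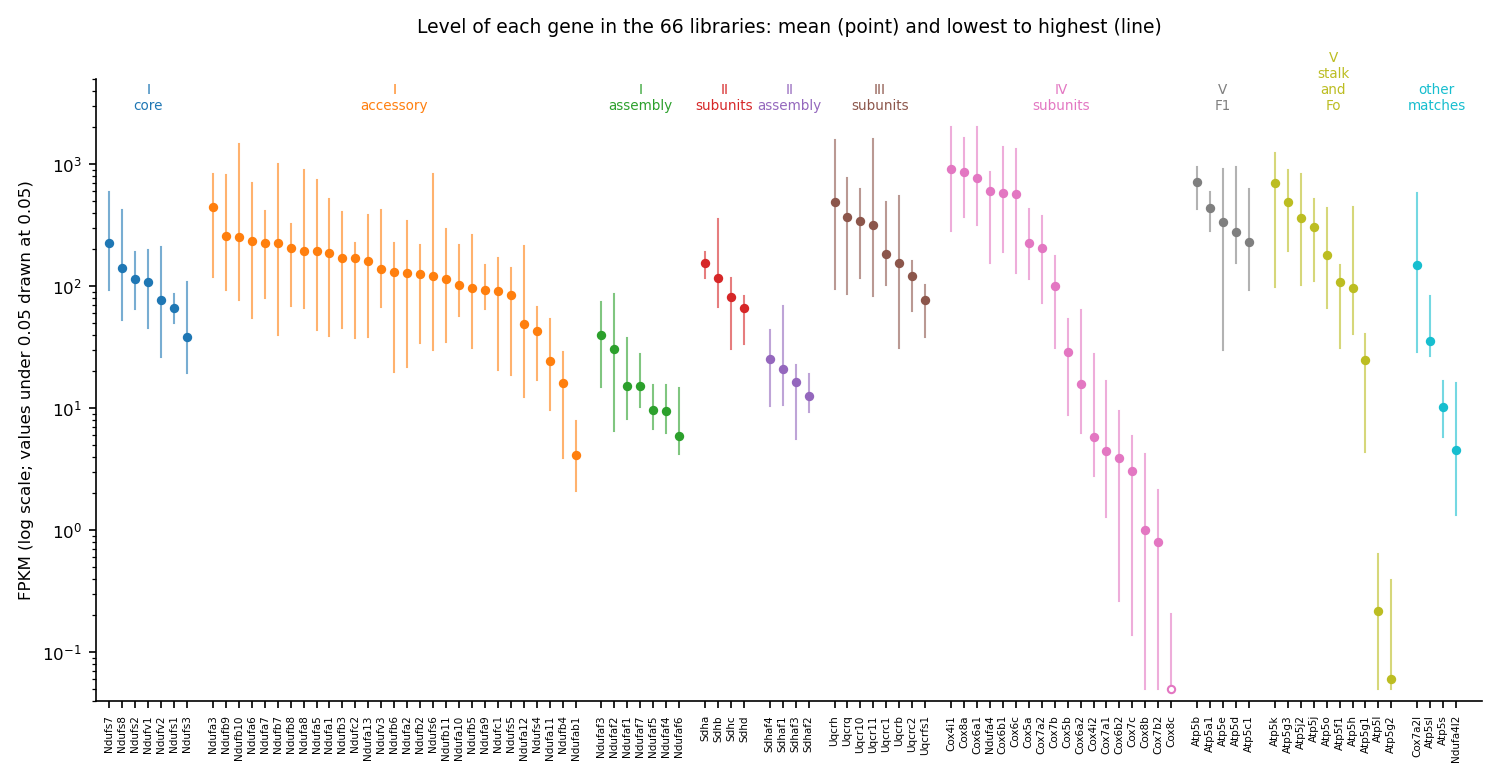
FPKM (vertical axis, log scale) of each of the 96 genes, grouped by complex: the point is the mean over 66 libraries and the line runs from the lowest to the highest library. Subunits lie mostly between 100 and 1000 FPKM, assembly factors between 5.88 and 39.5 FPKM, and the tissue-specific isoforms of complex IV at the low end.

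In the families of isoforms below a single member supplied most of the signal. Cox4i1 was 157 times Cox4i2, the form known for its response to low oxygen, which had a median share of 0.585% of the pair. Cox6a1 was 49.2 times the heart and muscle form Cox6a2, Cox6b1 was 150 times the testis form Cox6b2, and Cox7a2 was 46.6 times the muscle form Cox7a1. Cox8a was 863 times Cox8b, and Cox8c was above 0 in a single library. Ndufa4 was 133 times Ndufa4l2. Of the genes for the c subunit of Fo, Atp5g3 (489 FPKM) was 19.7 times Atp5g1 (24.9 FPKM).

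The family shares were not alike in all libraries. Cox7a2l made up a median of 73.5% of the sum of Cox7a2, Cox7a2l and Cox7a1 in the 13 set-apart libraries and 31.1% in the 51 others. Cox6a2 had a median share of 5.24% in the former and 1.44% in the latter, and Atp5g1 a share of 1.45% and 5.50%. Some subunits of all cells were listed very low: Atp5l (mean 0.216 FPKM, at 0 in 18 libraries) and Atp5g2 (0.060 FPKM, at 0 in 44), both of Fo, Cox7c (3.05 FPKM) and Ndufab1 (4.09 FPKM), the acyl carrier protein of complex I. Such genes have near-identical copies elsewhere in the genome, among which reads could have been split, so these levels are uncertain.

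Within their own groups, the set-apart libraries had lower values for most of these genes. Over the 86 genes with a mean of at least 5 FPKM, the median difference on the log2(FPKM + 1) scale was -0.60, against 0.07 for 9584 genes. Of the 86, 69 were lower, 58 were lower in all 10 groups (67.4%, against 25.4% of all genes) and none was higher in all 10 (26.4% of all genes). Differences below -1 were found for 29 of them (33.7%, against 4.9% of all genes). These are descriptions with no test, since the libraries were set apart by their own expression values.

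The largest negative difference was that of Atp5e, the epsilon subunit of F1, which was 30.2 to 77.4 FPKM (median 49.4) in the 13 libraries and 103 to 913 FPKM (median 388) in the other 53, a difference of -2.72. Atp5k, the e subunit of Fo, was 97.9 to 194 FPKM against 200 to 1225 FPKM (-2.52), and the ranges of both genes were separate. Uqcrq, a small subunit of complex III, was 86.2 to 127 FPKM (median 107) against 96 to 770 FPKM (median 428), a difference of -2.01. Ndufa2 and Atp5g1 differed by -2.40 and -2.00. Sdhc, the membrane anchor of complex II, was 30.7 to 41.2 FPKM against 51.9 to 116 FPKM (-1.24), with no overlap, and Cox4i1 had a median of 497 FPKM in the 13 and 1002 FPKM in the 53 (-1.11).

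A few genes went the other way. Cox7a2l was 236 to 325 FPKM (median 276) in the 13 and 28.9 to 577 FPKM (median 104) in the other 53, with a difference of 1.04. Uqcrb, a subunit of complex III, was 206 to 283 FPKM against a median of 117 FPKM (0.72), and Cox6a2, Atp5s and the assembly factor Ndufaf4 differed by 0.62, 0.48 and 0.41. All 5 were higher in 9 of the 10 groups, and the exception was WT cocaine at ZT19. There the third library, replicate 2, was not set apart but had a score of 15.1, the highest of the 53, and a Cox7a2l level of 352 FPKM. The core subunit Ndufs1 was 75.1 to 86.3 FPKM in the 13 against a median of 61.9 FPKM (0.24).

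Differences varied with transcript length. Length here is the median over the annotated protein-coding transcripts of a gene, short ones included, and can differ from that of the form expressed. It was 651 bases for Ndufs1 and 2676 bases for Atp5g1. Of the 45 genes of this set with transcripts under 750 bases, 44.4% differed by less than -1 (median -0.89), against 15.7% of all 839 genes of that length (median -0.25). From 1000 to 1500 bases the medians were -0.43 for 18 genes of the set and -0.13 for all genes, and from 1500 to 2500 bases -0.11 for 7 genes and 0.05 for all. Spearman's rho between length and difference was 0.31 over the 86 genes and also 0.31 over 9165 genes, and these points share the same libraries. By this measure the median length was 726 bases in the set and 2184 bases over all genes. By group, complex IV had the lowest median (-0.96), followed by the stalk and Fo (-0.89), accessory subunits of complex I (-0.76) and complex II (-0.71), while the assembly factors of complex I had a median of 0.10. Whether length, or a property that goes with it, sets these values was not tested.

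**Figure D3:**
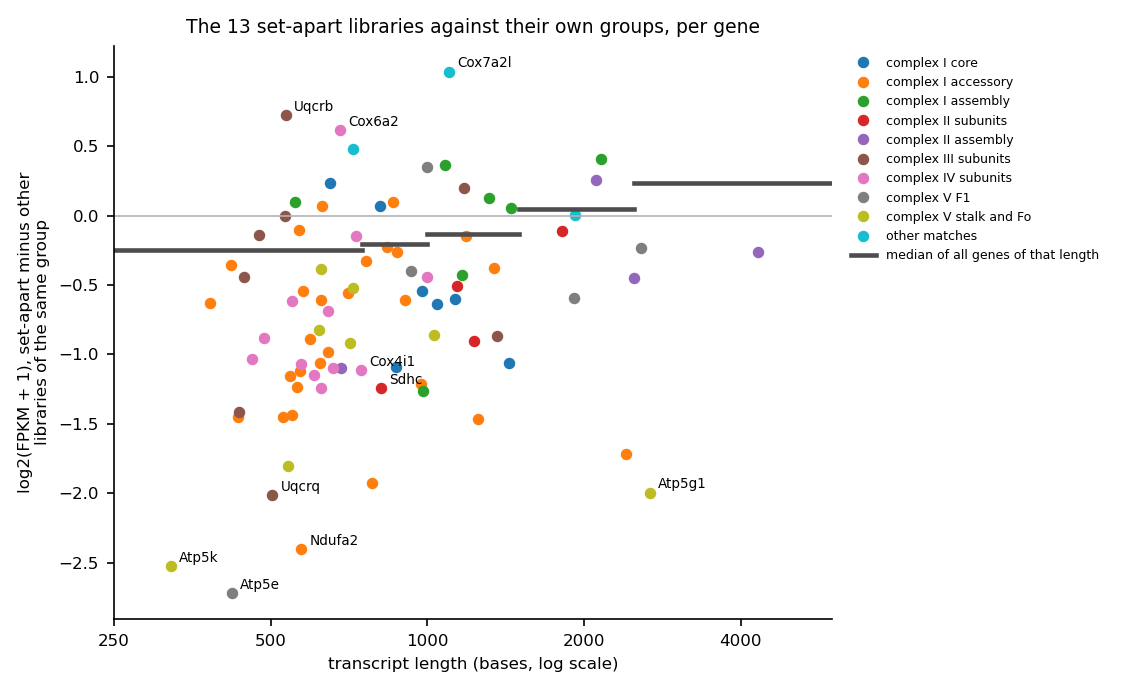
Difference in log2(FPKM + 1) between set-apart and other libraries of the same group (vertical axis) for 86 genes, coloured by complex. The horizontal axis is the median length in bases of a gene's annotated protein-coding transcripts (log scale). Grey bars are medians of all genes of that length. Atp5e (-2.72) and Atp5k (-2.52) lie lowest, Cox7a2l (1.04) highest, and genes under 750 bases lie mostly below the grey bar at -0.25.

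Rhythms over the day were tested with JTK_CYCLE, the method of the study, at a corrected p under 0.01. In WT saline, 7 of 93 genes tested were called, where 9.57% of all genes were. The strongest was Ndufaf4 (exact corrected p = 4.86e-04), with a fitted peak 17 h after the ZT3 samples. Its levels were 7.73, 7.16 and 7.55 FPKM at ZT3, 6.70, 6.27 and 7.75 at ZT7, 7.53, 7.40 and 7.66 at ZT11, 9.19, 8.13 and 8.57 at ZT15, 13.5, 14.1 and 9.48 at ZT19, and 12, 7.69 and 8.30 at ZT23. The 3 highest values, at ZT19 and ZT23, are from set-apart libraries, and the remaining dark-hour values still lie close to or above the highest light-hour value. The other 6 were Sdhaf2, Uqcrfs1, Ndufaf1, Atp5e, Sdhc and Ndufaf7, with corrected p of 0.00173 to 0.00755.

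Fewer genes were called in the other series. In WT cocaine 3 of 93 were (7.56% of all genes), led by Sdhc (exact corrected p = 5.59e-04) and Cox5b (0.00115), a subunit of complex IV, with fitted peaks 6 and 4 h after ZT3, and Sdhaf2 (0.00755). Sdhc was 88.3 to 105 FPKM at ZT3, 94.6 to 116 at ZT7, 95.4 to 100 at ZT11, 51.9 to 94.2 at ZT15, 30.7 to 55.2 at ZT19 and 33.9 to 90.1 at ZT23, and its 3 lowest values are from set-apart libraries. In iMSN-D2RKO saline 2 of 93 were called (2.57% of all genes), Ndufs8 and Ndufv2, core subunits of complex I, both at 0.00745. In iMSN-D2RKO cocaine none was called (1.09% of all genes), and 2 had a corrected p below 0.05, beside 4.11% of all genes.

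Without 15 libraries the calls were 2 in WT saline (6.36% of all genes), Ndufaf4 (0.00811) and Ndufaf5 (9.81e-04), 1 in WT cocaine (3.03%), Ndufab1, none in iMSN-D2RKO saline (1.2%), and 2 in iMSN-D2RKO cocaine (1.9%), Ndufs5 and Sdhaf1. Ndufaf4 in WT saline was the only gene called both ways.

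**Figure D4:**
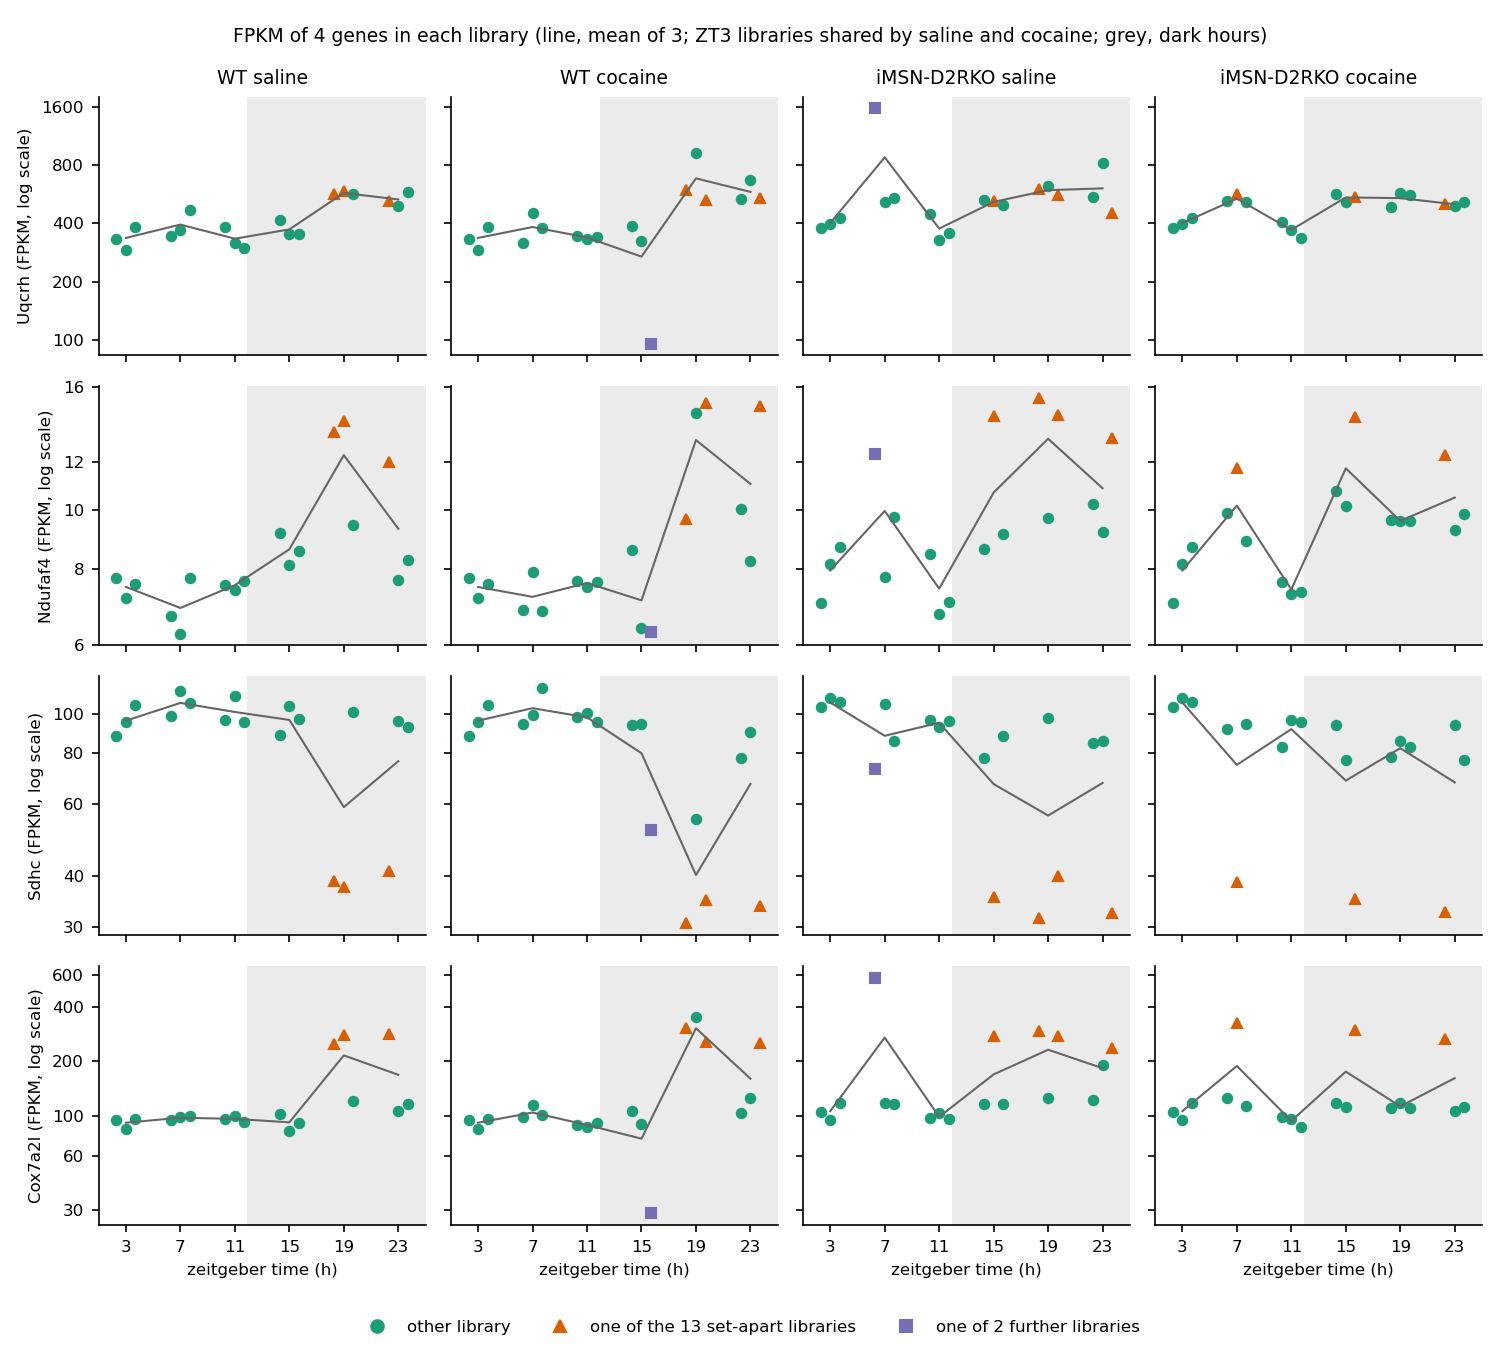
FPKM (vertical axis, log scale) of Uqcrh, Ndufaf4, Sdhc and Cox7a2l in each library against zeitgeber time in hours, by series; points are libraries, the line joins the means of 3, and the ZT3 libraries are drawn in both series of a genotype. Sdhc is at 30.7 to 41.2 FPKM and Cox7a2l at 236 to 325 FPKM in the set-apart libraries (triangles), whatever the series, while Uqcrh is at 451 to 601 FPKM in them, within the range of the other dark-hour libraries.

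Dark hours (mean of ZT15, 19 and 23) were then set against light hours (mean of ZT3, 7 and 11) in each series, with limma on log2(FPKM + 1). In WT saline, WT cocaine and iMSN-D2RKO saline every set-apart library was from dark hours. With all libraries kept, time of day and set-apart status are thus partly confounded. Dark-hour samples were also taken later after the injection at ZT3 than light-hour samples. Time of day and time since injection cannot be told apart in this contrast. In WT saline 24 of 93 genes passed an adjusted p of 0.05, 14 higher and 10 lower in the dark, where 23.8% of all genes passed, 17.1% higher and 6.79% lower. With libraries scaled by the median of ratios the count was again 24, but 10 were higher and 14 lower. Without 15 libraries 11 passed, 9 higher and 2 lower, where 5.76% of all genes did. With replicate 1 or replicate 2 of every time point left out none passed, where 0.0365% and 0% of all genes did, and without replicate 3, 50 did, where 37.4% of all genes did. The median of the 93 genes was -0.10 with all libraries and 0.07 without the 15, beside 0.06 and 0.03 for all genes.

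Uqcrh rose in the dark hours of WT saline. It was 290 to 472 FPKM (median 343) in 9 light-hour libraries and 351 to 588 FPKM (median 521) in 9 dark-hour libraries, a difference of 0.46 ± 0.081 (SE, adjusted p = 0.0115). The ranges overlap, and the difference was again 0.46 without 15 libraries (adjusted p = 0.0383). Ndufb10, an accessory subunit of complex I, was 136 to 240 FPKM (median 166) in the light and 171 to 315 FPKM (median 260) in the dark, a difference of 0.52 ± 0.102 (adjusted p = 0.0119), and 0.44 without 15 libraries (0.0475). Cox7a2 fell, from 174 to 311 FPKM (median 248.7) to 99.8 to 194 FPKM (median 163), a difference of -0.77 ± 0.142 (adjusted p = 0.0115) and -0.50 without the 15 (0.0391).

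Assembly factors of complex I made up 4 of the 14 genes that rose. Ndufaf1 was 10.8 to 14.5 FPKM (median 12.5) in the light and 13.2 to 20.1 FPKM (median 16.9) in the dark, a difference of 0.36 ± 0.059 (adjusted p = 0.0110), and 0.30 without 15 libraries (0.0383). Ndufaf2 was 17.6 to 31.9 FPKM (median 20.9) and 19.3 to 41.6 FPKM (median 34.5), a difference of 0.47 ± 0.092 (adjusted p = 0.0116), and 0.40 without the 15 (0.0462). In both genes the dark-hour median lies above the light-hour maximum when all libraries are kept. Ndufaf4 also passed both ways, with 0.39 (0.0143) and 0.22 (0.0411), and Ndufaf7 (0.27) passed only with all libraries. For Uqcrh, Ndufb10, Cox7a2, Ndufaf1 and Ndufaf2 the adjusted p ran from 0.0059 to 0.292 over the alternatives tried, and each lost its call without replicate 1, without replicate 2 and with all 66 libraries in 1 fit, with no change of direction. The 4 assembly factor differences kept their direction and passed under the other scaling as well.

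Among those that fell, Atp5e was 332 to 598 FPKM (median 433) in the light and 30.5 to 369 FPKM (median 282) in the dark, a difference of -1.64 (adjusted p = 0.0267). Without 15 libraries its dark-hour range was 235 to 369 FPKM and the difference -0.58 (0.0466). Cox4i2 rose both ways, by 0.48 and 0.57. Atp5h (0.36) and Uqcr11 (0.26), subunits of complexes V and III, and the complex II assembly factor Sdhaf3 (0.36) passed only without the 15.

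The stretch upstream of the transcription start is shown for 4 genes that differed between dark and light in WT saline, chosen because letters known as binding sites of regulators of respiratory genes occur there. Promoters of 77 of the 96 genes were matched in RefSeq (GRCm38.p6), and the printed stretch is the 120 bases before the start, 5′ to 3′ on the gene's strand, with the matched letters in capitals. Ndufaf4 (chr4:24897963-24898082, plus strand) holds the NRF1 letters GCGCATGC on both strands, overlapping each other. Ndufaf1 (chr2:119662835-119662954, minus strand), Uqcrh (chr4:116075071-116075190, minus strand) and Atp5e (chr2:174464102-174464221, minus strand) hold the ETS letters CCGGAAG on either strand.
Ndufaf4: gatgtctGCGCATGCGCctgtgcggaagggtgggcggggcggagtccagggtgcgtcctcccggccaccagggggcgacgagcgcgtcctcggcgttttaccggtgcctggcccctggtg
Ndufaf1: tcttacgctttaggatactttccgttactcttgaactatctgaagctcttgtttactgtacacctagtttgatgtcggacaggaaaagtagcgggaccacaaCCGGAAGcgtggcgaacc
Uqcrh: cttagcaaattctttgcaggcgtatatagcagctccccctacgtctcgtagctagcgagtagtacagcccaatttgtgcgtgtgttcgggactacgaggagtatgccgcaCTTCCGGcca
Atp5e: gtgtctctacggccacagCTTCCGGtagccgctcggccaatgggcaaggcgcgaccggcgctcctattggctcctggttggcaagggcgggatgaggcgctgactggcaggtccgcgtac
Over the 250 bases before the start, GCGCATGC or its reverse complement was found in 9 of 77 genes (11.7%), beside 5.42% of 7175 genes with a mean of at least 5 FPKM and 2.56% of all 27025 promoters. CCGGAAG was found in 15 (19.5%), beside 16.03% and 7.83%. AAGATGGC, the letters of YY1, was found in 1 gene (1.3%, beside 2.54% and 1.83%), the CRE letters TGACGTCA in 4 (5.2%, beside 3.47% and 1.77%) and the E-box CACGTG of the clock in 5 (6.5%, beside 10.72% and 6.86%). A match of letters is a description of the sequence and not a bound site.

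In WT cocaine 19 of 93 genes passed, 4 higher and 15 lower in the dark, where 19.3% of all genes passed, 12.7% higher and 6.55% lower (2 higher and 17 lower of the set with median-of-ratios scaling). Sdhc was 88.3 to 116 FPKM (median 98.4) in the light and 30.7 to 94.2 FPKM (median 55.2) in the dark, a difference of -0.78 ± 0.179 (adjusted p = 0.0105). Atp5g1 was 28.9 to 38.1 FPKM (median 32.3) and 5.31 to 35.1 FPKM (median 21.4), a difference of -1.06 ± 0.230 (0.00869). Atp5e (-1.67), Cox7a2 (-0.91) and Ndufaf7 (0.33) were next. The light and dark ranges overlapped for Sdhc and Atp5g1.

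The WT cocaine counts changed with the libraries left out at ZT15 and at ZT19. In this series the 13 and the 15 libraries differ only by replicate 3 at ZT15, and the counts for both are given at the end. Without 15 libraries 38 passed, 32 higher and 6 lower, where 31.9% of all genes did, with ZT19 resting on replicate 2 alone. With that library left out too, the dark hours were ZT15 and ZT23 alone. None then passed, where 0.0291% of all genes did (4 of 13741), and 13 were below an unadjusted p of 0.05. Uqcrh had its highest value of the series, 929 FPKM, in that library.

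In iMSN-D2RKO saline none of 93 passed, as for all genes (0%), although 38 were below an unadjusted p of 0.05, 36 of them lower in the dark, beside 31.3% of all genes. Ndufb4, with 14.8 to 27.9 FPKM (median 23.3) in the light and 3.90 to 16.3 FPKM (median 10.9) in the dark, differed by -1.09 ± 0.233 (adjusted p = 0.109). Without 15 libraries, again none passed (0.0145% of all genes), and 12 of the 15 below an unadjusted p of 0.05 were higher in the dark. In iMSN-D2RKO cocaine 2 rose, where 1.08% of all genes passed, 0.775% higher and 0.308% lower. Ndufaf2 was 19.9 to 35.2 FPKM (median 24.2) in the light and 28.6 to 40.6 FPKM (median 33.9) in the dark, a difference of 0.36 ± 0.062 (0.0259). Uqcrh was 336 to 569 FPKM (median 406) and 488 to 573 FPKM (median 519), a difference of 0.30 ± 0.060 (0.0361), which lost its call with median-of-ratios scaling (0.25, 0.0609).

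Without 15 libraries 7 passed in iMSN-D2RKO cocaine, where 11% of all genes did. Ndufaf2 (0.31), Uqcrh (0.31), Ndufaf4 (0.24), Ndufb10 (0.32) and Sdhaf3 (0.17) were higher, and Sdhaf1 (-0.27) and Atp5g1 (-0.29) lower. With all 66 libraries in 1 fit, and without replicate 1, 2 or 3, Uqcrh and Ndufaf2 lost their calls in this series, with adjusted p of 0.226 to 0.465 for Ndufaf2 and 0.226 to 0.556 for Uqcrh, and differences of 0.26 to 0.39. Differences between the series in this contrast were not tested.

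**Figure D5:**
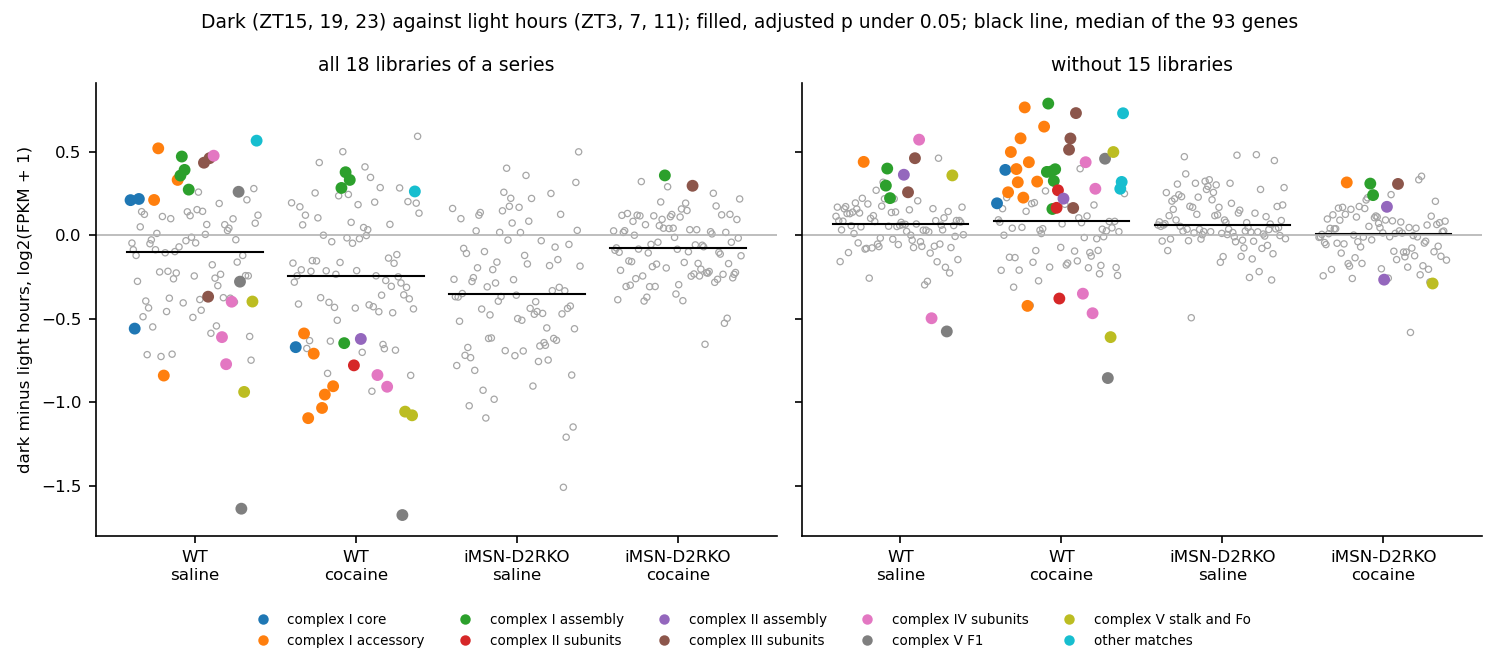
Dark minus light hours in log2(FPKM + 1) (vertical axis) for 93 genes in each series, with all 18 libraries of a series (left) and without 15 libraries (right); filled points passed an adjusted p of 0.05 and are coloured by complex, and the black line is the median. The medians lie at -0.10, -0.24, -0.35 and -0.08 with all libraries and at 0.07, 0.08, 0.06 and 0.01 without the 15.

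No gene of the set passed in the comparison of cocaine with saline. Over ZT7 to ZT23, with time point as a factor, the median difference was -0.08 in WT and in iMSN-D2RKO, beside 0.00 and -0.01 for all genes, and none of 93 passed in either genotype, as for all genes (0% in both). A single gene was below an unadjusted p of 0.05 in each, beside 2.54% and 2.98% of all genes. In WT this was Sdha, at 139 to 171 FPKM (median 157) in 15 saline and 117 to 169 FPKM (median 143) in 15 cocaine libraries, overlapping ranges that differed by -0.11 ± 0.043 (adjusted p = 1.0). In the test of whether this effect differed between genotypes none of 93 passed (0% of all genes), and none of the 93 was below an unadjusted p of 0.05, beside 1.68% of all genes. Sdha had the smallest p, with an interaction of 0.12 ± 0.060 (adjusted p = 1.0).

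In the level over all time points no gene of the set passed between genotypes with all libraries kept. In saline the median difference, iMSN-D2RKO minus WT, was 0.07 (0.01 for all genes) and 71 of 93 were positive, but none passed, where 0.189% of all genes did, 0.14% higher and 0.049% lower, and all 15 below an unadjusted p of 0.05 were higher in iMSN-D2RKO, beside 10% of all genes at that p. Uqcrh was 300 to 588 FPKM (median 414) in 15 WT and 326 to 1581 FPKM (median 530) in 15 iMSN-D2RKO saline libraries from ZT7 on, overlapping ranges. With the ZT3 libraries included the difference was 0.34 ± 0.112 (adjusted p = 0.339), and without 15 libraries 0.31 ± 0.069 (0.0322), the only call of the 93 in that setting, where 0.761% of all genes passed. Over all alternatives tried its adjusted p ran from 0.0322 to 0.888. The next by p were Ndufaf2 (0.33, adjusted p = 0.292) and Ndufb10 (0.39, 0.439). In cocaine none passed (0.0487% of all genes), 2 were below an unadjusted p of 0.05 (3.55% of all genes), and Sdha had the smallest p (0.14 ± 0.052, adjusted p = 1.0).

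Differences in rhythm, tested as the interaction of a 24 h cosine and sine with treatment or genotype, gave no call among the 93 in any of 4 comparisons, as for all genes (0% in each). Unadjusted p fell below 0.05 for none in WT and 2 in iMSN-D2RKO for cocaine against saline, and for 1 in saline and 4 in cocaine for the genotypes, beside 1.38%, 5.54%, 2.48% and 4.83% of all genes. Cox4i2 had the smallest p for the genotypes in saline (0.00114, adjusted 0.975).

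At single time points, 21 contrasts gave 17 calls, all in 3 contrasts. These 3 held libraries described above as standing apart or as lowest or highest in total FPKM, and so did most of the other 18. The other 18, which include all 10 of cocaine against saline, gave none, where 0 to 0.041% of all genes passed. Without 15 libraries, cocaine against saline in WT at ZT19 gave 31 calls among the 93, 19 higher and 12 lower, where 28.4% of all genes passed, with a single library left in each group. For iMSN-D2RKO against WT in saline at ZT7, 6 genes were higher, where 3.07% of all genes passed. Ndufb10 was 1471, 267 and 269 FPKM in iMSN-D2RKO and 156, 174 and 240 FPKM in WT, a difference of 1.34 ± 0.330 (adjusted p = 0.0254). The first of these values is from replicate 1, the library of highest total FPKM, and without 15 libraries no gene of the set passed (0.0918% of all genes). The others were Cox4i2 (1.22), Ndufs6 (1.35), Ndufaf2 (0.94), Ndufaf1 (0.65) and Atp5h (1.09).

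For the same contrast in cocaine at ZT15, 5 genes were higher, where 4.4% of all genes passed. Uqcrh was 566, 519 and 551 FPKM in iMSN-D2RKO and 389, 323 and 95.3 FPKM in WT, a difference of 1.25 ± 0.287 (0.0160), and Ndufaf2 was 34.6, 31.3 and 40.6 against 23.5, 19 and 6.42 FPKM (1.24 ± 0.243, 0.00592). The groups do not overlap, and the lowest WT values are those of replicate 3, the library of lowest total. Without 15 libraries Ndufaf2 (0.62, 0.0488) and Ndufaf4 (0.44, 0.0385) passed as higher and Cox8a (-0.75, 0.0440) as lower, with 2 libraries on each side, where 1.85% of all genes passed.

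At ZT19 in cocaine, 5 were lower in iMSN-D2RKO and 1 higher, where 11.9% of all genes passed. Cox7a2l was 110, 117 and 111 FPKM in iMSN-D2RKO and 305, 352 and 256 FPKM in WT, a difference of -1.41 ± 0.460 (0.0458), and Ndufs1 was 57.5, 64.2 and 70.5 against 78.4, 84.9 and 80.1 FPKM (-0.34 ± 0.111, 0.0462). Atp5s (-0.62), Cox6a2 (-1.24) and Ndufa4l2 (-0.85) were also lower and Cox7c (1.5) higher, and the genotypes overlapped in none of the 6. Cox7a2l, Ndufs1, Atp5s and Cox6a2 were higher in set-apart libraries in the 9 other groups that held them. In this WT group Cox7a2l and Ndufs1 were instead highest in replicate 2, which is not set apart. Set-apart libraries make up 2 of the 3 WT and none of the iMSN-D2RKO libraries of this contrast. Without 15 libraries it rests on a single WT library, and 41 passed, where 38.6% of all genes did.

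Genes of the pathway around the set, 64 in all of which 62 were tested, were given the same tests. They cover electron carriers, assembly factors of all complexes, transcriptional regulators, the tricarboxylic acid cycle, and carriers and channels of the mitochondrial membranes. In WT saline 14 of 62 passed between dark and light, 11 higher and 3 lower, where 23.8% of all genes did, and without 15 libraries 3 did, where 5.76% of all genes did: Cox18 (-0.55), Cox19 (0.20) and Dld (0.17). Among 12 regulators, 4 were higher in WT saline with all libraries, where 17.1% of all genes were: Gabpa (0.55) and Gabpb1 (0.39), the chains of the ETS-type factor GABP (NRF2), Ppargc1b (0.29) and Yy1 (0.20). None of the 12 passed without 15 libraries. In WT cocaine 18 passed, 8 higher and 10 lower (19.3% of all genes), and without 15 libraries 25, 19 higher and 6 lower (31.9%). In iMSN-D2RKO saline none passed (0%). In iMSN-D2RKO cocaine Yy1 alone did (0.28, adjusted p = 0.0297, 1.08% of all genes), and without 15 libraries 8 did (11%), with Yy1 (0.25) among 3 that were higher and 5 that were lower. With all libraries none passed in the comparisons of level, of rhythm or in the interaction. At single time points 3 passed between genotypes in saline at ZT7 (3.07% of all genes) and 9 in cocaine at ZT19 (11.9%).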

How the data were processed

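RNA was measured in punches of ventral striatum, with 3 libraries per group. Per the paper's methods and the labels, poly(A) RNA was sequenced, reads were aligned to mm10 (TopHat with Bowtie) and the authors deposited FPKM values made with Cuffnorm. Depth is not given in an FPKM table. From low values, relative depth ran from 0.378 to 1.73 of the median library. The table has 72 columns, of which 6 ZT3 columns repeat others exactly and were counted once.

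Genes at 1 FPKM or more in at least 1 library of a fit were tested with limma 3.58.1 (R 4.3.3) on log2(FPKM + 1), with Benjamini-Hochberg adjustment over all of them. The pseudocount understates differences of low genes. Rhythms were tested with a Python 3.11.15 version of JTK_CYCLE 3.1 after removal of Dixon outliers. Both were tested on simulated data. P-values measure the spread between libraries, since the labels do not say whether each is a separate animal. Genes named were isoform families, 12 core subunits, the highest and lowest of each complex, up to 5 called genes of smallest p per comparison (or the first 3 where none was called) and the 5 largest differences each way in the set-apart libraries. The result of 1 gene that this rule names is not reported here. The genes and lists were chosen with earlier results of these data known. Leaving out the 13 or 15 libraries was chosen after seeing the data.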

Additional observations from a re-analysis of the deposited data

Results flagged for a closer look

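Among 380 pairs of values checked, over 38 named genes and 5 time points, 1 stood out as moving in opposite directions in all samples of both genotypes. Ndufaf2 at ZT19 differed between cocaine and saline by 0.39 in WT and by -0.28 in iMSN-D2RKO, as the log2 ratio of mean FPKM. It was 41.7, 63.5 and 43.1 FPKM after cocaine and 40.9, 37.9 and 34.5 FPKM after saline in WT, and 28.6, 34.2 and 34.3 FPKM after cocaine and 41.2, 37.3 and 39.7 FPKM after saline in iMSN-D2RKO. The difference between the genotypes in this effect of cocaine at ZT19 was not tested, and 4 of the 6 WT and 2 of the 6 iMSN-D2RKO libraries are among the 13 set apart.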

How the results depend on the processing

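Of 205 alternative values of counts and levels, 141 stayed within 1.5 times the reported value or within the spread, and 64 did not. The 141 include counts of 0 that stayed at 0. The comparisons of level and of rhythm between groups, and the interaction, had 0 calls to begin with. Rhythmic genes in WT saline (7 reported) numbered 4 with no Dixon test, 17 at a corrected p of 0.05, 2 with Benjamini-Hochberg adjustment, 11 with the library score removed, 2 without the 13 set-apart or the 15 libraries, and 0 to 4 without a replicate. In WT cocaine (3) they numbered 12, 1 with Benjamini-Hochberg adjustment, 1 without the 13 or the 15, and 0 to 4 without a replicate. In iMSN-D2RKO saline (2) they numbered 0 with no Dixon test, 10, 0 with Benjamini-Hochberg adjustment, 1 with the score removed, 0 without the 13 or the 15, and 0 to 1 without a replicate. In iMSN-D2RKO cocaine (0) they numbered 2 at 0.05, 1 with the score removed, 2 without the 13 or the 15, and 0 to 1 without a replicate.

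Genes differing between dark and light in WT saline (24) numbered 14 with no filter, 1 with all 66 libraries in one fit, 11 without the 13 or the 15, and 0 to 50 without a replicate. In WT cocaine (19) they numbered 12 with no filter, 0 with the library score as covariate, 7 without the 13, 38 without the 15, 0 without the 15 and ZT19, and 0 to 28 without a replicate. In iMSN-D2RKO saline (0) they numbered 23 with all 66 libraries and 0 to 29 without a replicate. In iMSN-D2RKO cocaine (2) they numbered 1 with no filter, 1 with median-of-ratios scaling, 21 with the score, 0 with all 66 libraries, 7 without the 13 or the 15, and 0 without any replicate. Replicate numbers did not pair the libraries (mean correlation of same-numbered libraries -0.003, 22 of 66 closest to their own number). With the replicate block these counts were 35, 26, 0 and 0. The genotype level in saline (0) gave 1 without the 15. Time point contrasts (17) gave 11 with no filter, 10 with scaling, 83 with the score, 32 with only the 6 libraries of a contrast, 38 without the 13, 75 without the 15, and 5 to 24 without a replicate. The cause of these changes was not tested.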
